A study of Homo sapiens with 2 samples.

Results

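The 31 genes described here are established transcriptional targets of p53 with known functions in DNA repair, metabolism, cell-cycle arrest and apoptosis. They were taken by symbol from the 19220 gene symbols of a count table, all 31 were found, and 26 of them had enough reads to be measured. The tested library came from H9 cells kept with 0.05 µM doxorubicin for 6 h, and the other from untreated H9 cells, with 1 library per condition and a genotype given as WT for both. The H9 line is an immortal human T lymphoma culture grown in serum-containing medium, and doxorubicin is an anthracycline drug that leaves DNA breaks by stalling topoisomerase II.

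In unstressed cells p53 is kept low by the ubiquitin ligase MDM2. DNA breaks activate the kinases ATM and ATR, p53 is stabilised, and it binds pairs of decamers in or near its targets and raises their transcription. The targets act in several directions at once: some repair DNA or supply nucleotides, some restrain growth and redirect metabolism, some hold the cell cycle, and some open the mitochondrial death pathway. Many of them are also reached by other regulators, so their mRNA levels are not a readout of p53 alone.

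Doxorubicin-treated cells gave 50174434 counts on genes and untreated cells 33730703, a depth ratio of 1.49. Counts were scaled to CPM (counts per 1000000) with TMM effective library sizes, and each log2 ratio is that of the doxorubicin library over the untreated one, with an exact counting interval at 95% in parentheses. Genes whose counts in the 2 libraries added up to 100 or more were taken as measured, and a gene was called higher or lower when it differed at least 1.5-fold and its counting interval excluded a ratio of 1. With 1 library per condition there is no test between conditions, and the intervals do not hold the variation between cultures. Of the 7 T cell markers, 6 had between 768 and 10636 counts in each library, but CD2 had 2 counts with doxorubicin and 0 untreated. The summed level of those 7 markers was 810 CPM with doxorubicin and 780 CPM untreated, whereas 4 myeloid markers summed to 0.292 CPM with doxorubicin and 0.304 CPM untreated. The near-equal T cell sums hold single markers that moved in opposite directions. Log2 ratios were 1.11 for CD3G, which passed the size rule, 0.48 for LCK, 0.42 for CD247 and 0.21 for CD4. They were -0.33 for CD3E and -0.58 for CD3D. Markers of other lineages were not all at 0: the B cell gene CD79A had 6628 counts with doxorubicin and 6007 untreated, the epithelial gene EPCAM had 3236 with doxorubicin and 2591 untreated, and the stem cell factor POU5F1 had 110 with doxorubicin and 105 untreated. PAX5 of the B cell markers and NANOG of the stem cell markers were at 0 in both libraries, and what part such cells or transcripts have in the values below was not tested. In bulk RNA of this kind fewer cells expressing a gene and less RNA per cell cannot be told apart.

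Stretches of promoter that hold the consensus decamer of the p53 response element are shown first, because p53 binds pairs of such decamers. RefSeq windows on GRCh38.p14 from 250 bases before to 50 bases after a transcription start were found for 24 of the 31 genes, 32 windows in all. Of all 35116 RefSeq windows of this length, 6.63% held at least 1 exact match to the decamer, which reads alike on both strands, and 10 windows held 2 matches separated by at most 13 bases. Among the members, 6 of the 32 windows held a match and 1 of them, that of DDB2, held the paired form. The DDB2 element lies 6 to 26 bases after a transcription start of the gene at chr11:47214979-47214999 on the plus strand, and capitals mark its 2 decamers:
DDB2: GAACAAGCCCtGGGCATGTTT
The other matches were single decamers before a start, shown with up to 15 flanking bases on each side and the decamer in capitals. They lie at chr15:88621291-88621330 on the plus strand for AEN and, on the minus strand, at chr17:74872995-74873020 for FDXR, chr5:58460194-58460233 for PLK2, chr15:63157512-63157551 for RPS27L and chr6:109009013-109009052 for SESN1.
AEN: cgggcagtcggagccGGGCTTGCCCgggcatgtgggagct
FDXR: ggcccgggcaggagcGGGCTTGCCCt
PLK2: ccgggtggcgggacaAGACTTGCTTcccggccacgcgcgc
RPS27L: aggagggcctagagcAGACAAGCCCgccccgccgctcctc
SESN1: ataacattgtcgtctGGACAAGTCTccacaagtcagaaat
These letter matches are a description of the windows and not evidence of binding in H9 cells, and elements outside the windows, in introns for instance, were not searched. The genes were listed as p53 targets to begin with, so the share of windows with a match is no independent finding.

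Across the 26 measured members, 0 were higher, 3 were lower and 23 were neither. The 3 lower genes were RPS27L, BBC3 and GADD45A. Among all 11244 measured genes, 7.26% were higher and 9.57% lower, while the 3 lower members make up 11.5% of those measured. The members' median log2 ratio was -0.015, beside 0.0066 over all measured genes, and 13 members lay above 0 and 13 below. Their interquartile range ran from -0.28 to 0.22, and that of all measured genes from -0.28 to 0.27. The single-gene counting interval lay above a ratio of 1 for 9 members, below it for 10, and included it for 7. The median turned positive, to between 0.026 and 0.059, when ratios were adjusted for transcript length. When libraries were scaled by total counts 3 members, SESN2, CYFIP2 and SUSD6, were higher and the same 3 were lower, where 9.64% of all measured genes were higher and 7.58% lower. That scaling also moved the split of all calls, of which 43.1% were higher with TMM and 56.0% with total counts.

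**Figure D1:**
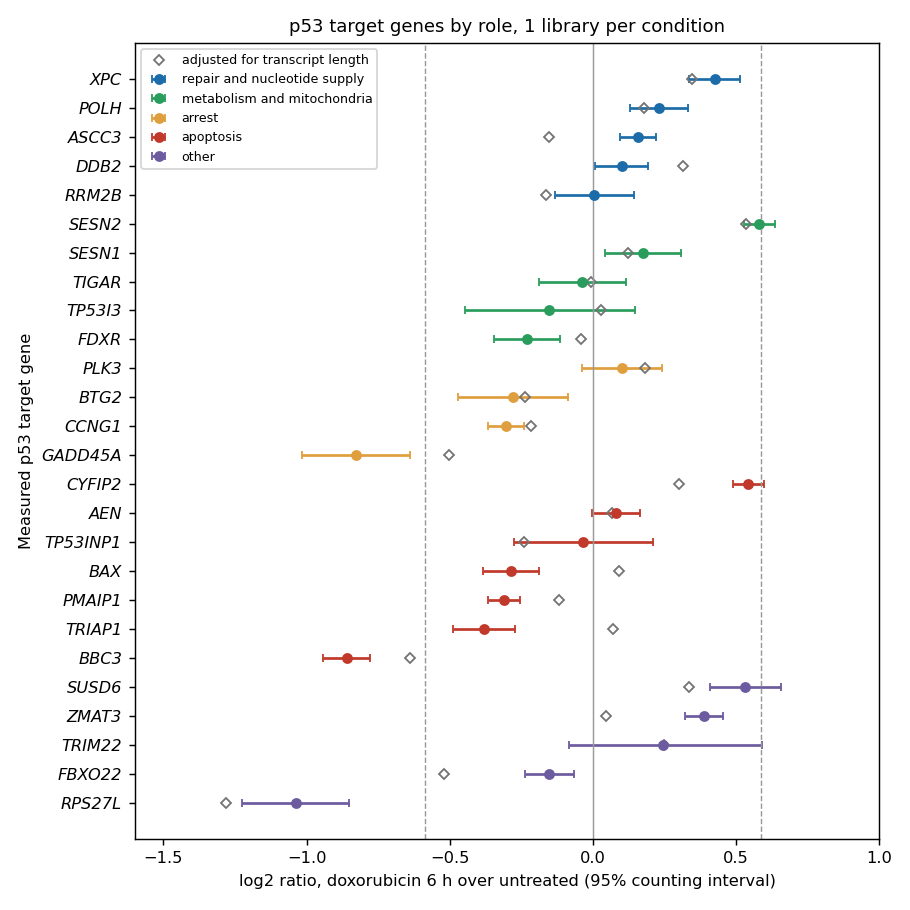
Log2 ratio of doxorubicin over untreated for the 26 measured p53 target genes, in 1 library per condition. Filled points are coloured by role and carry 95% counting intervals, open diamonds are ratios adjusted for transcript length, and dashed lines mark 1.5-fold; RPS27L, BBC3 and GADD45A are the 3 filled points left of the lower line, and of these GADD45A has its diamond inside it.

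The repair genes were all called neither, and all 5 had ratios at or above 0. Their median log2 ratio was 0.16 and their summed level was 288 CPM with doxorubicin and 251 CPM untreated. XPC, which recognises distorted DNA in nucleotide excision repair, had 3108 counts (60.5 CPM) with doxorubicin and 1485 counts (45.1 CPM) untreated. Its log2 ratio of 0.42 (0.34 to 0.51) was the highest of the group. Other protein-coding genes overlap 19.1% of the XPC exons, so part of its reads may not be its own. DDB2, the damage sensor that hands ultraviolet lesions to XPC and that holds the paired element shown above, had 2471 counts with doxorubicin and 1479 untreated, or 48.1 and 44.9 CPM. Its unadjusted log2 ratio was 0.10 (0.0061 to 0.19), small beside that of XPC. The 2 genes lay close together after adjustment for transcript length, with DDB2 at 0.31 and XPC at 0.35. With coding length and GC content included DDB2 was at 0.13 and XPC at 0.16.

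POLH, the polymerase eta that copies past ultraviolet lesions, had 2317 counts with doxorubicin and 1267 untreated, a log2 ratio of 0.23 (0.13 to 0.33). ASCC3, a helicase of the alkylation repair and ribosome rescue machinery, had 5789 counts with doxorubicin and 3331 untreated, at 0.16 (0.095 to 0.22). RRM2B, the p53-inducible small subunit of ribonucleotide reductase, stood at 21.6 CPM in each library, from 1111 counts with doxorubicin and 710 untreated, and its ratio was 0.0048 (-0.13 to 0.14). The signs of ASCC3 and RRM2B were not stable, at -0.15 and -0.17 after adjustment for transcript length by a smooth curve over all measured genes. XPC, POLH and DDB2 lay above 0 also in that adjustment, at 0.35, 0.18 and 0.31.

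In metabolism, 0 of 5 measured genes passed the size rule, SESN2 came closest to it, and the other 4 had log2 ratios between -0.23 and 0.17. SESN2 is a sestrin, a protein that restrains the growth kinase complex mTORC1 when amino acids are short or DNA is damaged. It had 9157 counts (178 CPM) with doxorubicin and 3930 counts (119 CPM) untreated, a 1.49-fold higher level (1.44 to 1.55) that ended just under the size limit. This was the highest ratio of the 26 members, and 92.6% of measured genes had a lower one. After adjustment for transcript length it was at 0.53, and at 0.48 when coding length and GC content were included. SESN1, its paralog, had 1287 counts with doxorubicin and 732 untreated, with a log2 ratio of 0.17 (0.041 to 0.31). Per kilobase of annotated transcript the SESN2 level was 7.23 times that of SESN1 with doxorubicin and 5.46 times untreated. These ratios rest on annotated lengths of 3453 bases for SESN2 and 3509 bases for SESN1. They would be smaller by median coding transcript length, which is 3453 bases for SESN2 and 2718 bases for SESN1.

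TIGAR, a phosphatase that slows glycolysis, had 896 counts with doxorubicin and 590 untreated, at -0.038 (-0.19 to 0.11). An overlapping annotated gene covers 61.5% of the TIGAR exons, which leaves its value uncertain. TP53I3, an oxidoreductase linked to reactive oxygen, had 230 counts with doxorubicin and 164 untreated, at -0.15 (-0.45 to 0.15). FDXR, the mitochondrial ferredoxin reductase, had 1448 counts with doxorubicin and 1090 untreated, at -0.23 (-0.35 to -0.12). After adjustment FDXR was at -0.043 for transcript length, -0.037 with coding length and GC content included, and -0.17 by median transcript length. The group's median was -0.038, with 2 genes above 0 and 3 below. SPATA18, which acts in the removal of damaged mitochondria, had 0 counts in both libraries, and a count of 0 allows up to 3 counts, or 0.0584 CPM with doxorubicin and 0.0911 CPM untreated.

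**Figure D2:**
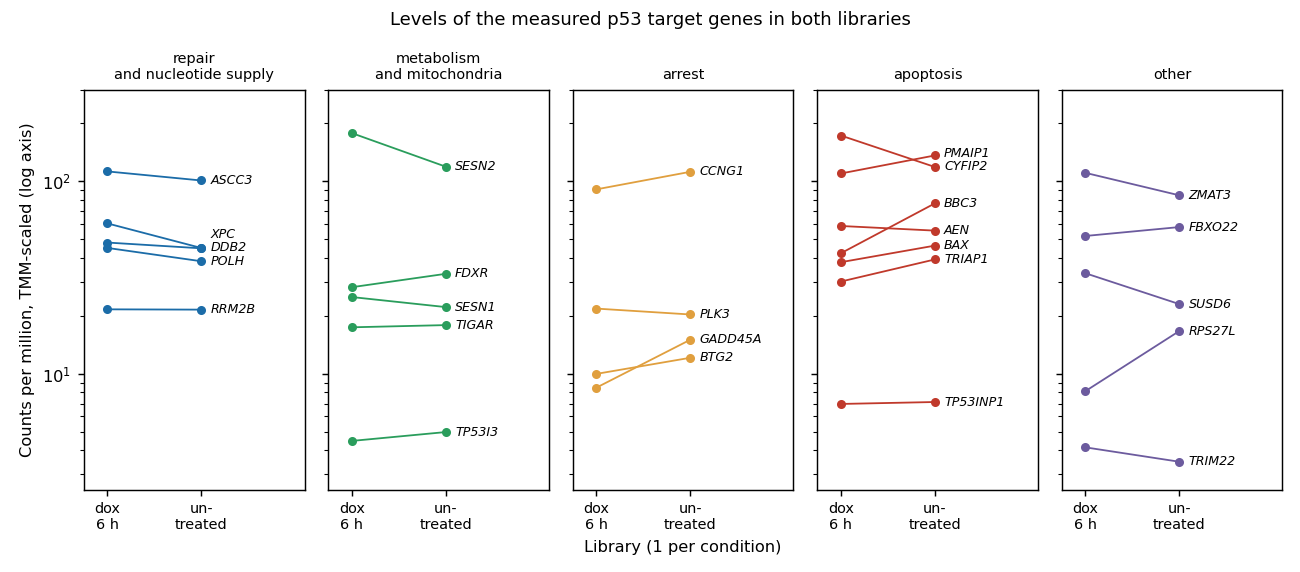
Levels of the 26 measured p53 target genes in CPM on a log axis, with the doxorubicin library left and the untreated library right in each panel, and 1 panel per role. Lines join the 2 values of a gene, for example 178 CPM with doxorubicin and 119 CPM untreated for SESN2, and 42.3 CPM with doxorubicin and 76.8 CPM untreated for BBC3.

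The arrest genes had a median log2 ratio of -0.29, with 1 of 4 measured members lower, 0 higher and 3 neither. Among all measured genes 9.57% were lower and 7.26% higher, and 1 call among 4 genes does not set the group apart from that share. GADD45A, which binds the replication clamp PCNA and the kinases of the p38 and JNK pathways, was the lower one. It had 435 counts (8.47 CPM) with doxorubicin and 495 counts (15.0 CPM) untreated, 1.77-fold lower (1.56 to 2.02). Adjustment for transcript length took it to a log2 ratio of -0.50, inside the size limit, with or without coding length and GC content. By median transcript length it was at -0.65 and still called lower. BTG2, an antiproliferative partner of the deadenylase complex, had 513 counts with doxorubicin and 399 untreated, at -0.28 (-0.47 to -0.086). CCNG1, an atypical cyclin that feeds back on MDM2, had 4670 counts with doxorubicin and 3695 untreated, at -0.30 (-0.37 to -0.24). Both were below 0 in each scaling and adjustment tried but never past the size limit.

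PLK3, a stress-responsive polo-like kinase, had 1121 counts with doxorubicin and 670 untreated, and its log2 ratio of 0.10 (-0.038 to 0.24) included 0. Its relative PLK2 had 0 counts in both libraries. Of the 2 polo-like kinases in this family of targets, H9 cells therefore showed reads of PLK3 and none of PLK2 at this depth.

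Of the 7 measured apoptosis genes 5 had ratios below 0 and 2 above it, where 50.7% of all measured genes lay above 0. BBC3, which encodes PUMA, a BH3-only protein that frees BAX and BAK, had 2173 counts (42.3 CPM) with doxorubicin and 2530 counts (76.8 CPM) untreated. It was 1.82-fold lower (1.71 to 1.92), the second lowest ratio of the members. The value depended on the adjustment: -0.64 for transcript length alone, still past the limit, and -0.24 with coding length and GC content included. PMAIP1, which encodes NOXA, the BH3-only protein that neutralises MCL1, had 5647 counts (110 CPM) with doxorubicin and 4493 counts (136 CPM) untreated. Its log2 ratio was -0.31 (-0.37 to -0.25). After adjustment it was -0.12 for transcript length, -0.22 by median transcript length and 0.31 with coding length and GC content included. Per kilobase of annotated transcript PMAIP1 was the most abundant member in each library, at 56.4 CPM with doxorubicin and 70.0 CPM untreated. That rank does not hold by median coding transcript length, which is 1605 bases for PMAIP1 and 919 bases for CCNG1.

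BAX, the effector that forms the mitochondrial pore, had 1953 counts with doxorubicin and 1527 untreated, at -0.29 (-0.38 to -0.19). TRIAP1, a small intermembrane-space protein that opposes apoptosis, had 1549 counts with doxorubicin and 1294 untreated, at -0.38 (-0.49 to -0.27). Both came from short transcripts, of 1358 and 1182 bases, and after adjustment for these lengths BAX was at 0.091 and TRIAP1 at 0.068. By median transcript length both remained below 0, at -0.17 for BAX and -0.22 for TRIAP1. TP53INP1, which promotes p53-dependent death and autophagy, had 358 counts with doxorubicin and 235 untreated, at -0.035 (-0.27 to 0.21).

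CYFIP2, a WAVE complex subunit found as a p53-inducible gene, had the highest unadjusted ratio of the measured apoptosis genes. It had 8898 counts (173 CPM) with doxorubicin and 3918 counts (119 CPM) untreated, 1.46-fold higher (1.40 to 1.51) and so not past the size rule. Its log2 ratio of 0.54 became 0.30 after adjustment for transcript length and 0.39 by median transcript length. With coding length and GC content included CYFIP2 was at 0.14, below PMAIP1 at 0.31 and TRIAP1 at 0.27. AEN, a nuclease that digests DNA in dying cells, had 3013 counts with doxorubicin and 1828 untreated, at 0.080 (-0.0042 to 0.16). The 7 measured genes had a median of -0.29, with 1 lower, 0 higher and 6 neither, beside 9.57% lower and 7.26% higher of all measured genes. That 1 call does not set the group apart from that share. The median was 0.067 after adjustment for annotated transcript length but -0.22 by median transcript length. PHLDA3, a repressor of the kinase AKT, had 12 counts with doxorubicin and 6 untreated, at 0.30 (-1.17 to 2.06). EDA2R, a receptor of the TNF superfamily, had 0 counts in both libraries.

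The remaining members have roles outside these groups and held the lowest ratio of all. RPS27L, a paralog of ribosomal protein S27 that acts on MDM2 and p53 stability, had 417 counts (8.12 CPM) with doxorubicin and 549 counts (16.7 CPM) untreated. It was 2.05-fold lower (1.80 to 2.34), and 1.28% of measured genes had a lower ratio. It was the 1 member past the size rule under every scaling, filter, size limit and adjustment tried, with adjusted log2 ratios between -1.28 and -0.87. Its annotated reference transcript of 6434 bases is long for a coding sequence of 252 bases, and the median of its annotated coding transcripts is 808 bases, so its place on the length curve rests on that annotation. The adjustment by median transcript length gave the -0.87. Other genes share 2.73% of the sequence sampled along the 6434-base transcript. That share rests on the same annotation and was not computed for the shorter transcripts.

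SUSD6, a transmembrane protein with a sushi domain, had 1712 counts (33.3 CPM) with doxorubicin and 759 counts (23.0 CPM) untreated, 1.45-fold higher (1.33 to 1.58). Its log2 ratio of 0.53 became 0.34 after adjustment for transcript length. It was 0.31 with coding length and GC content included and 0.26 by median transcript length. ZMAT3, a zinc-finger protein that binds RNA and steers splicing, had 5693 counts with doxorubicin and 2790 untreated, at 0.39 (0.32 to 0.45). After adjustment ZMAT3 was at 0.045 for transcript length, 0.27 with coding length and GC content included, and 0.29 by median transcript length. TRIM22, an antiviral ubiquitin ligase also induced by interferon, had 213 counts with doxorubicin and 115 untreated, at 0.25 (-0.086 to 0.59). FBXO22, the substrate receptor of a ubiquitin ligase, had 2673 counts with doxorubicin and 1907 untreated, at -0.15 (-0.24 to -0.068), and other genes overlap 17.9% of its exons. The same adjustments put FBXO22 at -0.52, -0.30 and 0.0044 in that order. GDF15, a secreted stress cytokine often used as a sign of p53 activity, had 3 counts with doxorubicin and 4 untreated. The counting interval of its log2 ratio, -3.83 to 1.51, is too wide for a direction.

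**Figure D3:**
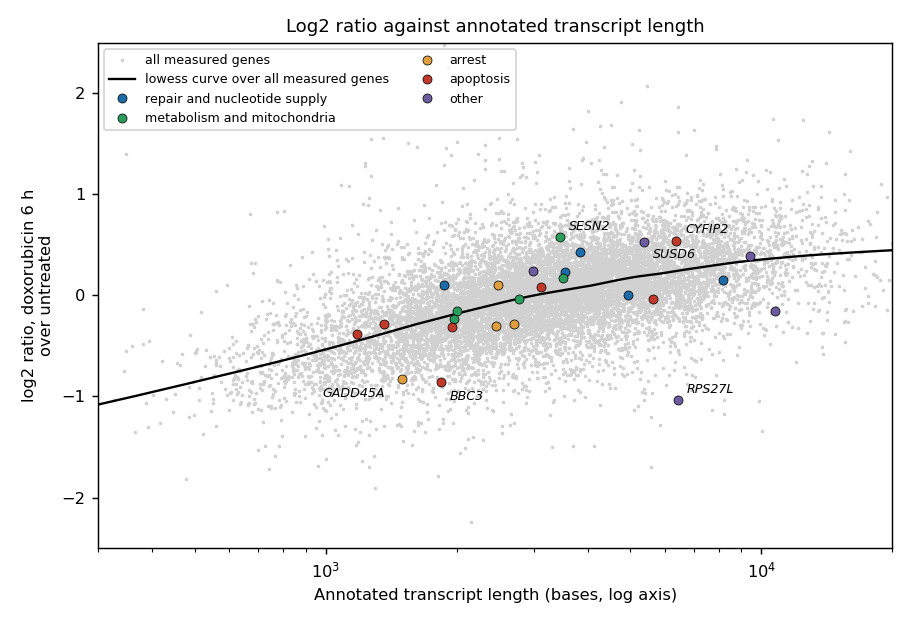
Log2 ratio of doxorubicin over untreated against annotated transcript length in bases on a log axis, for all measured genes with a length (grey; 16 lie outside the axes) and for the 26 measured p53 target genes by role. The black line is the lowess curve over all measured genes; RPS27L lies far below it, GADD45A and BBC3 below its short-transcript end, and SESN2 above it.

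Transcript length went with the ratio among the members as it did in the table as a whole. Spearman's rho between annotated transcript length and log2 ratio was 0.54 over the 26 members and 0.55 over 11207 measured genes with a length, all taken from the same 2 libraries. It was 0.62 over the members and 0.35 over 11193 genes when each gene's coding transcripts were represented by their median length. Adjusted for transcript length, 0 members were higher and 2 lower, RPS27L and BBC3, where 4.95% of all measured genes were higher and 4.67% lower. With coding length and GC content added, 0 were higher and RPS27L alone was lower, where 4.15% of all genes were higher and 3.56% lower. By median transcript length, 0 members were higher and 3 lower, where 6.42% of all genes were higher and 7.43% lower. After the curve for annotated transcript length the group medians were 0.18 for repair, 0.027 for metabolism, -0.23 for arrest and 0.067 for apoptosis. By median transcript length they were 0.16, 0.0064, -0.24 and -0.22 in the same order. With coding length and GC content added they were 0.062, 0.099, -0.091 and 0.048, so the order of the groups depended on the adjustment. Whether length itself or another property of the libraries sets this relation was not tested.

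The regulators MDM2 and MDM4 were not past the size rule, with MDM2 at 0.24 (0.18 to 0.30) and MDM4 at 0.088 (-0.0042 to 0.18). CDKN1A, the p21 gene, had 84 counts with doxorubicin and 52 untreated, at 0.046 (-0.46 to 0.58). Among 55 other established p53 targets 45 were measured, of which 6 were higher, 2 lower and 37 neither, with a median of 0.035, beside the 7.26% higher and 9.57% lower of all measured genes. After adjustment for transcript length 4 were higher and 4 lower, since PLXNB2 and NOTCH1 no longer passed and RAP2B and BTG1 were lower. With coding length and GC content added, 4 were higher and 2 lower. The highest of the 6 were ERCC5, a repair endonuclease, at 0.94 (0.47 to 1.46), TNFRSF10A, a death receptor for TRAIL, at 0.73 (0.56 to 0.90), RNF19B, a ubiquitin ligase, at 0.72 (0.58 to 0.86) and CD82, a tetraspanin, at 0.70 (0.64 to 0.76). ERCC5 had 142 counts with doxorubicin and 47 untreated, and another annotated gene overlaps nearly all of its exons, so its ratio is uncertain. The 2 lower ones were IER5, an immediate early regulator, with 16121 counts with doxorubicin and 18605 untreated, at -0.85 (-0.88 to -0.82), and IKBIP at -0.81 (-0.94 to -0.68).

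**Figure D4:**
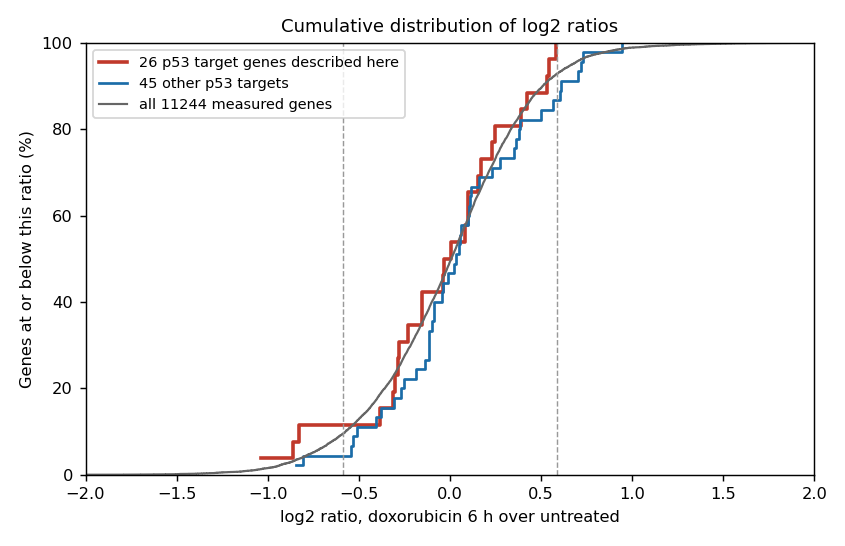
Cumulative share of genes, in percent, at or below each log2 ratio of doxorubicin over untreated, for the 26 measured p53 target genes, 45 other p53 targets and all 11244 measured genes. Dashed lines mark 1.5-fold; the 3 curves cross 50% near 0, at medians of -0.015, 0.035 and 0.0066, and the 26 genes end at 0.58.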

How the data were processed

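Poly(A)-selected RNA of H9 cells was sequenced from 1 doxorubicin-treated and 1 untreated culture sample. The authors deposited raw read counts per gene symbol; per the submitters' processing notes the tools named are HISAT2 and featureCounts and the build hg19, while versions, annotation, strand setting and handling of multiply aligned reads are, in the sources used here, not given. Counts were scaled by TMM (edgeR 4.0.16, R 4.3.3), 0.5 was added to each count before the log2 ratio, and an exact Clopper-Pearson interval at 95% gave the counting error of the ratio. The reads carry no molecular identifiers and are not independent molecules, so intervals and the limit of 3 counts cover counting error only. No count model was fitted, because 1 library per condition leaves no estimate of spread. The functions were tested on simulated data.

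Lengths, GC content, exon overlap and shared 50-base stretches came from GENCODE release 29 and promoter windows from RefSeq GRCh38.p14, both on another assembly than the counts. Ratios were adjusted over all measured genes by a lowess curve of span 0.3 or by splines. The members, their roles and the lists were chosen with earlier results of these data known. Every member is named; of other p53 targets, those past the size rule were named, up to the 4 highest and 4 lowest. The rule also took a few p53 regulators, not all of which are reported here. Promoter stretches of DDB2, AEN and FDXR were added after the windows were searched for the decamer. Alternatives were the size factors of DESeq2 1.42.0, total-count scaling, other count minimums, size limits, intervals and added counts, and the length adjustments.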

Additional observations from a re-analysis of the deposited data

How the results depend on the processing

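RPS27L, BBC3 and GADD45A were the lower members, and 0 were higher, with DESeq2 size factors, count minimums of 20 or 1, a counting interval with an error rate of 0.001, 2 counts added before the log, the median-length adjustment, which was added after seeing the data, and without the 3 measured members that overlap or share sequence by at least 10%. Scaling by total counts gave 3 higher members, with SESN2 at a log2 ratio of 0.65, CYFIP2 at 0.61 and SUSD6 at 0.60. A size limit of 0.32 on the log2 scale gave 5 higher and 4 lower members among 2294 higher and 2416 lower genes in all. A limit of 2-fold left 1 lower member, RPS27L, among 128 higher and 175 lower genes. The splines on transcript length, coding length and GC content also left 1 lower member. These size limits act by their own construction, and the cause of the other moves was not tested. The members' median stayed between -0.017 and 0.059. Depth limits TP53I3, TRIM22 and TP53INP1, whose intervals are wide, and the 5 members with too few reads. No paired analysis was possible because each condition has 1 library.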
